A study of Mus musculus with 168 samples.

Results

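Mir132 and Mir212 are 2 neighbouring microRNA genes of the mouse, and they are described here across 7 Htt genotypes and 3 ages in the hippocampus. They were taken by gene model: of 1626 transcripts in the count table, the 2 whose Ensembl identifiers belong to Mir132 (ENSMUST00000083603) and Mir212 (ENSMUST00000083656) in GENCODE M21 were kept, and both passed the filter on low counts that left 470 transcripts for testing. Hippocampal short RNA of 168 C57BL/6 mice was sequenced, 8 mice in each of 21 groups. All knock-in mice were heterozygous, with a human HTT exon 1 in 1 copy of Htt and the mouse allele in the other. Wild-type mice (WT) and mice of the Q20, Q80, Q92, Q111, Q140 and Q175 lines, named by their CAG repeat, were examined at 2, 6 and 10 months (2m, 6m, 10m). WT mice were littermates of Q20 mice. In the labels, WT and Q20 mice are housed together and each longer allele with mice of its own line, so that housing group and allele cannot be told apart. The Q175 line arose from Q140 by expansion of the repeat, and each allele is 1 line. Each group had 4 females and 4 males, except that the labels gave 5 females and 3 males for Q20 at 10m and 3 females and 5 males for Q80 at 2m.

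MicroRNAs are cut from hairpin precursors and pair through their seed, the bases near their 5′ end, with messenger RNAs that are then repressed. The Mir132 and Mir212 hairpins lie in 1 primary transcript, whose transcription in neurons is induced by activity and by neurotrophins through the factor CREB. The mature products are known for roles in dendrite growth, spine formation and plasticity, and the locus is also a known target of the repressor REST, which silences neuronal genes. Normal huntingtin is known to hold REST outside the nucleus of neurons, which huntingtin with an expanded repeat does less well. None of this background was measured here.

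Both hairpins lie on the plus strand of chromosome 11 (GRCm38), Mir212 at chr11:75173388-75173478 and Mir132 at chr11:75173682-75173747, with 203 bases between them. They are within intron 1 (chr11:75172598-75173977) of the noncoding gene 1700016P03Rik, which has 3 exons, and they overlap no exon and no gene on the opposite strand. The hairpins are shown because the 2 genes are told apart only by these letters. In the RefSeq sequences below the mature arms are in capitals.
Mir212 hairpin: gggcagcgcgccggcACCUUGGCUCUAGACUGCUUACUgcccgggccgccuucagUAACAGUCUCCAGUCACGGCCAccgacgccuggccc
Mir132 hairpin: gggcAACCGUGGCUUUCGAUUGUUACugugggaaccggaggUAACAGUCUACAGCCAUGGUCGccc

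The 4 mature products follow with the seed, bases 2 to 8, in capitals, to show which of them could repress the same messenger RNAs.
miR-132-3p: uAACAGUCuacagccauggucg
miR-212-3p: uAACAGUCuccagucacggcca
miR-132-5p: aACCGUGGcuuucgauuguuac
miR-212-5p: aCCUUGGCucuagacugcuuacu
The 3p arms shared the seed AACAGUC, and among 1738 mature mouse sequences in the table only these 2 carried it. They were identical at 17 of 22 positions and over the first 9 bases. The 5p arms had different seeds and matched at 9 of the 22 positions compared. Counts were given per gene model, so the 5p and 3p arms of a hairpin were not separated here.

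Library totals ranged from 2117539 to 9099227 estimated counts with a median of 3374648. Levels are given as CPM, the estimated counts per 1000000 counts of the library after scaling with trimmed means of M values (TMM). Mir132 held 0.313% of all counts, with 6812 to 26663 counts in a library, and Mir212 0.113%, with 2395 to 10986. In the authors' RPKM values, which are per length, Mir132 averaged 21621 and ranked 70 of 470 by mean level, and Mir212 averaged 8647 and ranked 131. Both varied less between mice of a group than most tested transcripts. The biological coefficient of variation was 7.60% for Mir132 and 8.85% for Mir212, against a median of 14.5% over all tested transcripts. Of the 470, 35 lay below Mir132 and 91 below Mir212, and transcripts were not matched by level. In single groups the coefficient of variation of CPM reached 17.9% for Mir132 and 13.9% for Mir212. The label text gave library codes L2 to L4 at 2m and L6 to L8 at 10m, which were used as a covariate. At 6m all WT and Q175 libraries formed 1 block by library number (16 libraries, block A, all with code L6) and the other 5 genotypes another (40 libraries, block B). Block A was deeper, and only in block A did the deposited RPKM values follow exactly from the deposited counts. A direct comparison of Q175 with Q20 at 6m therefore cannot be told apart from the block.

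At 2m no difference by allele was detected for either microRNA. Mir132 ranged from 3082 to 3511 CPM in Q175 with a median of 3282, from 2959 to 3518 in WT with a median of 3304, and from 2781 to 3719 in Q20 with a median of 3281. Mir212 ranged from 1115 to 1368 CPM in Q175 (median 1260), from 1076 to 1396 in WT (median 1233) and from 1058 to 1457 in Q20 (median 1222). The groups overlapped almost fully, with no Q175 library below every control in either gene. In the order of the group means, from 3498 ± 299 CPM in Q111 to 3253 ± 121 in Q92 for Mir132 (SD, n = 8), no neighbouring groups differed by more than the larger of their SDs, and the same held for Mir212, from 1330 ± 158 in Q111 to 1211 ± 169 in Q92. The slope on CAG length is the log2 change per 100 repeats over all 56 mice of an age, with WT at 7 repeats and with sex and library code as covariates. It was 0.02 (SE 0.02) for Mir132 and 0.03 (SE 0.03) for Mir212, both with an edgeR adjusted p = 0.988 in a fit that called 0.213% of transcripts. Against WT and Q20 together, Q175 differed by 0.02 (95% interval -0.06 to 0.10) for Mir132 and by 0.01 (-0.10 to 0.12) for Mir212, both with adjusted p = 0.987. This fit called 0% of transcripts, with 8 of 470 at an unadjusted p under 0.05 and 0 called by DESeq2.

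At 6m both microRNAs fell in Q175. Mir132 ranged from 2376 to 3095 CPM in Q175 (median 2826) and from 3050 to 3634 in the WT libraries of the same block (median 3328). It lay between 2837 and 3525 in Q20 (median 3110). For Mir132, 7 of 8 Q175 libraries lay below every WT library and 5 below every control of either genotype. Mir212 ranged from 798 to 1029 CPM in Q175 (median 898), from 1020 to 1143 in WT (median 1069) and from 1082 to 1256 in Q20 (median 1184). For Mir212, 7 of 8 Q175 libraries lay below every WT library, and the highest, F4, lay within the WT range.

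The fitted difference at 6m, which rests on the WT libraries because Q20 stood alone in the other block, was -0.27 for Mir132 (SE 0.06, edgeR adjusted p = 0.0122), so that it fell by 16.8%. For Mir212 it was -0.21 (SE 0.05, adjusted p = 0.0224), so that it fell by 13.4%. This comparison called 3.41% of transcripts, 16 of 469. Both calls held when any 1 of the 24 libraries was left out, with differences of -0.29 to -0.23 for Mir132 and -0.24 to -0.18 for Mir212. Leaving out a Q20 library could hardly move them, because Q20 stood alone in its block. In females alone the differences were -0.25 (adjusted p = 0.670) and -0.12 (adjusted p = 0.787), in a fit that called 0 transcripts. Both calls held in males alone, where 6 transcripts were called. Against Q20 alone, with no term for the block, Mir132 differed by -0.15 (adjusted p = 0.0513) and Mir212 by -0.33 (adjusted p = 0.000106). That fit called 223 transcripts, and its differences cannot be told apart from the block.

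At 10m both microRNAs fell in Q175 and the groups hardly overlapped. Mir132 ranged from 2331 to 2724 CPM in Q175 (median 2460), from 2740 to 3116 in WT (median 2999) and from 2745 to 3167 in Q20 (median 2955). Every Q175 library lay below every one of the 16 control libraries. Mir212 ranged from 796 to 957 CPM in Q175 (median 849), from 950 to 1165 in WT (median 1076) and from 945 to 1130 in Q20 (median 1079), and 7 of 8 Q175 libraries lay below all controls. Against all 48 libraries of the other genotypes, 7 Q175 libraries lay lowest for Mir132 and 6 for Mir212.

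The difference from WT and Q20 was -0.25 for Mir132 (SE 0.04, edgeR adjusted p = 3.15e-05), so that it fell by 15.8%, and -0.30 for Mir212 (SE 0.04, adjusted p = 3.15e-05), so that it fell by 18.9%. In this comparison 11.9% of transcripts were called, 26 higher and 30 lower. The decrease was present within each library code. For Mir132 the mean log2 CPM of Q175 minus that of the controls was -0.23 in L6 (3 against 8 libraries), -0.25 in L7 (3 against 6) and -0.28 in L8 (2 against 2). For Mir212 it was -0.31, -0.29 and -0.31. Both calls held in all 24 fits that left out 1 library and in males alone, where 19 transcripts were called. In females alone, where 6 transcripts were called, the differences were -0.23 (adjusted p = 0.0625) and -0.30 (adjusted p = 0.0573).

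**Figure D1:**
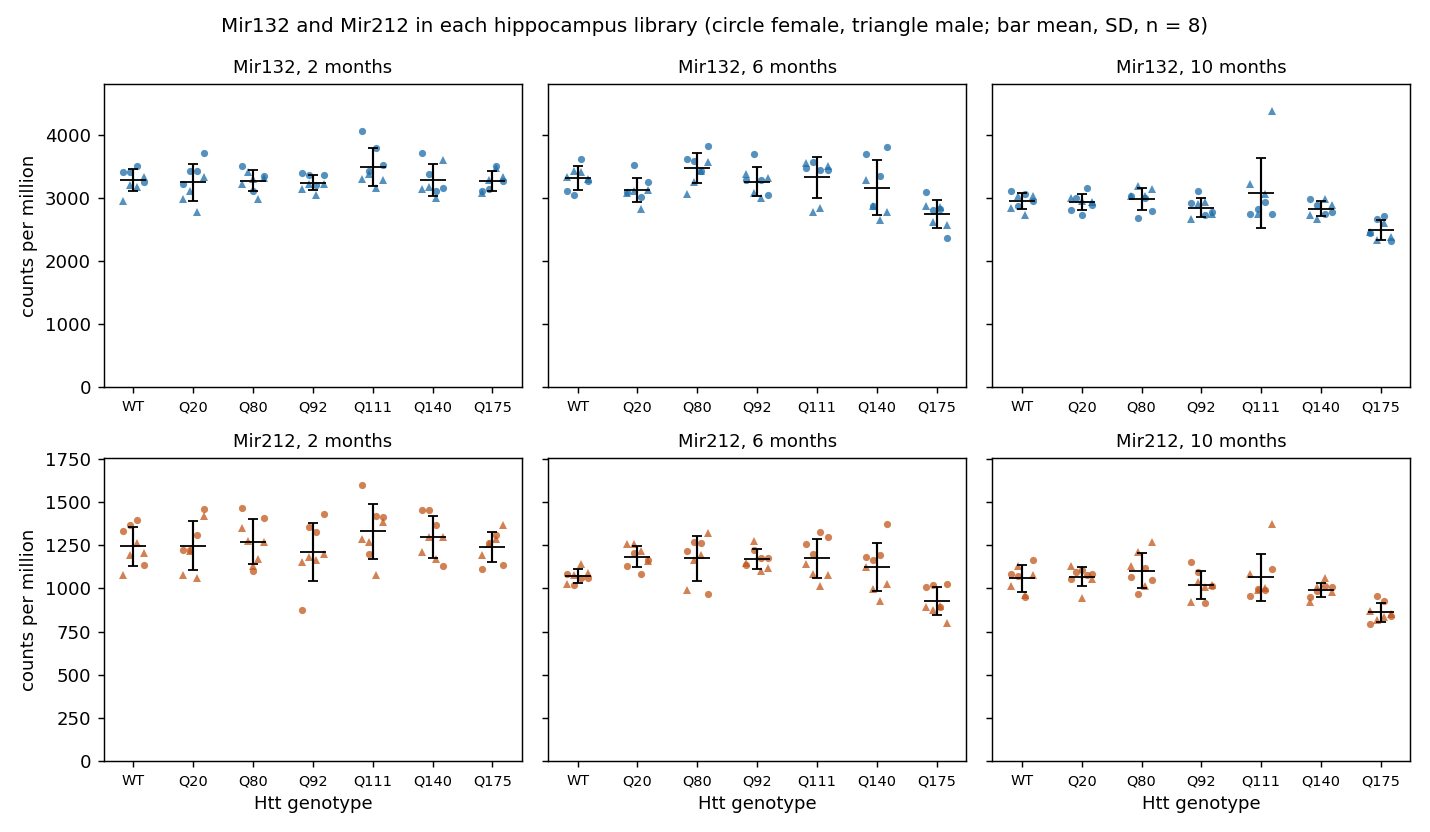
Level of Mir132 (top row) and Mir212 (bottom row) in CPM against Htt genotype at 2, 6 and 10 months, 1 point per library, with circles for females, triangles for males and bars for the mean and SD of 8 libraries. At 10 months every Q175 library of Mir132 lies at or below 2724, under the lowest control at 2740, while at 2 months the 7 genotypes overlap.

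The alleles between Q20 and Q175 showed no called difference from the controls. At 6m the block term left them compared with Q20, in the same block, since WT stood in the other. Over Q80, Q92, Q111 and Q140 at the 3 ages, 12 comparisons for each gene, the differences lay between -0.06 and 0.15 for Mir132 and between -0.10 and 0.09 for Mir212. The 95% intervals together spanned -0.12 to 0.25 and -0.20 to 0.22. None of these comparisons passed the edgeR test, with a lowest adjusted p of 0.299 for Mir132 and 0.429 for Mir212, and neither gene was called in them by DESeq2. At an unadjusted p under 0.05 there were 2 for Mir132 and 1 for Mir212. These were Mir132 in Q80 at 6m (0.15, adjusted p = 0.299), Mir132 in Q111 at 2m (0.10, adjusted p = 0.591) and Mir212 in Q140 at 10m (-0.10, adjusted p = 0.429). In those fits 33 of 469, 29 of 469 and 42 of 470 transcripts, in turn, had an unadjusted p under 0.05. Of these 12 fits 11 called 0% of transcripts, and that of Q111 at 6m called 0.213%.

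At 10m the order of the Mir132 means ran from Q111 (3088 ± 552 CPM, SD, n = 8) through Q80 (2993 ± 172), WT (2962 ± 127), Q20 (2943 ± 130), Q92 (2856 ± 145) and Q140 (2840 ± 119) to Q175 (2499 ± 154). That of Mir212 ran from Q80 (1103 ± 101) through Q20 (1067 ± 55.7), Q111 (1064 ± 137), WT (1058 ± 76.6), Q92 (1021 ± 79.7) and Q140 (992 ± 42.4) to Q175 (862 ± 54.9). In both orders only the step from Q140 to Q175 exceeded the larger SD of the groups beside it. At 6m the orders mixed blocks A and B, and the only such step was the last. For Mir132 it ran from Q20 (3135 ± 197) to Q175 (2760 ± 223), across the blocks, and cannot be told apart from the block. For Mir212 it ran from WT (1071 ± 39.0) to Q175 (927 ± 82.8), both in block A.

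The Q175 line was also compared with Q140, from which it arose. At 10m Mir132 was lower in Q175 than in Q140 by a log2 difference of -0.20 (edgeR adjusted p = 0.0177), and Mir212 by -0.22 (adjusted p = 0.00841), with an SE of 0.06 for both, in a fit that called 4.89% of transcripts. Mir132 lay between 2679 and 2992 CPM in Q140 and between 2331 and 2724 in Q175, so that the ranges touched only at their ends. At 2m the differences were 0.01 (95% interval -0.08 to 0.10) and -0.03 (-0.18 to 0.12), both uncalled (adjusted p = 0.996) in a fit that called 0%. At 6m the lines were in different blocks and were not compared. The 2 control genotypes, compared at 2m and 10m, gave 4 differences of Q20 minus WT between -0.05 and 0.02 with an adjusted p of at least 0.956, in fits that called 0% of transcripts.

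**Figure D2:**
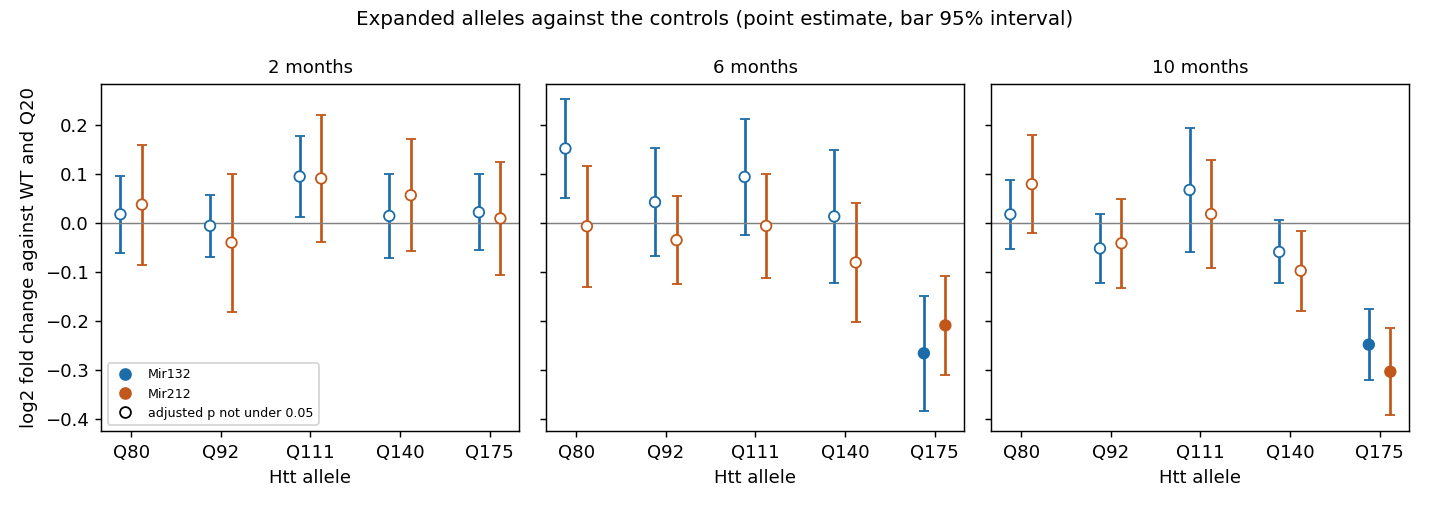
Log2 fold change of each expanded allele against WT and Q20, with 95% intervals, for Mir132 (blue) and Mir212 (orange) at 2, 6 and 10 months. At 6 months the block term left Q175 compared with WT and the other alleles with Q20. Filled points had an adjusted p under 0.05, which held for Q175 at 6 and 10 months (-0.27 and -0.21, then -0.25 and -0.30) and for no other allele.

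Taken along the whole allelic series, the slope on CAG length at 6m was -0.09 (SE 0.03) for both genes and was not called (edgeR adjusted p = 0.183 for Mir132 and 0.0765 for Mir212), where 1.28% of transcripts were. DESeq2 called both at 6m, with adjusted p = 0.0411 for Mir132 and 0.00764 for Mir212, in a fit that called 13 transcripts. At 10m the slope was -0.10 for Mir132 (SE 0.03, adjusted p = 0.0273) and -0.14 for Mir212 (SE 0.03, adjusted p = 0.00328), both called as decreasing with CAG length, among 11.1% of transcripts called. Both 10m calls rested on Q175. With Q175 left out the slopes at 10m were 0.01 for Mir132 (adjusted p = 0.991) and -0.03 for Mir212 (adjusted p = 0.863), and at 6m they were 0.01 for Mir132 and -0.07 for Mir212 (adjusted p = 0.995 for both). At 6m the block term left WT alone in block A without Q175, so that those slopes rested on Q20 to Q140 in block B. The call of Mir132 at 10m was lost without any 1 of 7 libraries, Q140 M2 and Q175 F1, F4 and M1 to M4, with adjusted p between 0.0506 and 0.0777, whereas that of Mir212 held in all 56 such fits. In males alone neither 10m slope was called (adjusted p = 0.628 for Mir132 and 0.373 for Mir212).

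The slopes were compared between ages in 1 fit over all 168 libraries. For Mir212 the slope at 10m minus that at 2m was -0.16 (SE 0.05, edgeR adjusted p = 0.0253), which was called among 2.34% of transcripts, and -0.09 (adjusted p = 0.980) without Q175. For Mir132 it was -0.11 (SE 0.04, adjusted p = 0.133), which did not pass. From 2m to 6m the slopes differed by -0.11 for Mir132 and -0.12 for Mir212 (adjusted p = 0.205 for both, 0.213% called). From 6m to 10m they differed by -0.00047 and -0.04 (adjusted p of at least 0.813), where 0.638% were called.

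The means of both genes were lower at 10m than at 2m in all 7 genotypes, but no library code was shared between 2m and 10m, so that age and code cannot be told apart, and no test was made. In WT, Mir132 averaged 3290 ± 176 CPM at 2m, 3325 ± 185 at 6m and 2962 ± 127 at 10m (SD, n = 8), and Mir212 averaged 1245 ± 113, 1071 ± 39.0 and 1058 ± 76.6. In Q175 the Mir132 means were 3282 ± 161, 2760 ± 223 and 2499 ± 154, and those of Mir212 were 1241 ± 86.7, 927 ± 82.8 and 862 ± 54.9.

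Males and females were compared by the difference of their slopes. At 2m and 10m these lay between 0.0030 and 0.06 for both genes and were uncalled (adjusted p of at least 0.789), in fits that called 0% and 1.06% of transcripts. At 6m the slope of Mir212 was lower in males than in females by -0.19 (SE 0.05), which did not pass over all transcripts (edgeR adjusted p = 0.122, DESeq2 adjusted p = 0.0561, 0.213% called). Fitted apart, the 6m slope of Mir212 was -0.20 in males (adjusted p = 0.00248) and -0.0029 in females (adjusted p = 0.994). The sexes lay furthest apart in Q111 and Q140. Mir212 in males averaged 1221 ± 46.1 CPM in Q20, 1079 ± 50.9 in Q111, 1018 ± 80.6 in Q140 and 867 ± 47.7 in Q175, while in females it averaged 1145 ± 52.4 in Q20, 1271 ± 54.2 in Q111, 1226 ± 96.8 in Q140 and 987 ± 63.7 in Q175 (SD, n = 4 each). The female and male libraries of Q111 did not overlap (1202 to 1325 against 1014 to 1139), nor did those of Q140 (1163 to 1370 against 928 to 1122). The ranges of females and males overlapped in Q20 (1082 to 1205 against 1158 to 1256) and in Q175 (892 to 1029 against 798 to 901). In WT, Q80 and Q92 the sexes lay close together. WT averaged 1058 ± 26.7 CPM in females and 1084 ± 48.7 in males. Q80 averaged 1180 ± 143 and 1168 ± 137, and Q92 1177 ± 37.0 and 1160 ± 78.9. For Mir132 the 6m difference between the sexes was -0.06 (SE 0.07, adjusted p = 0.999).

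Because both hairpins come from 1 primary transcript, their proportion within a library was examined, which does not depend on library scaling. The ratio compares libraries and is not a measure of the relative amount of the 2 RNAs. At 10m there were 34.5 ± 1.63 Mir212 counts per 100 Mir132 counts in Q175, 35.7 ± 2.42 in WT and 36.3 ± 2.53 in Q20 (SD, n = 8). At 6m there were 33.8 ± 4.21 in Q175 and 32.3 ± 1.78 in WT, and at 2m 37.8 ± 2.09 in Q175, 37.8 ± 1.98 in WT and 38.3 ± 2.18 in Q20. The ranges of Q175 and the controls overlapped at every age. In two-sided exact permutation tests, the mean log2 ratio of Q175 minus controls was -0.0082 at 2m (p = 0.809, 8 against 16 libraries), 0.06 at 6m (p = 0.438, 8 against 8 WT) and -0.06 at 10m (p = 0.142, 8 against 16). Adjusted over the 3 ages these p-values were 0.809, 0.657 and 0.427. A difference in proportion between Q175 and the controls was thus not detected while both levels were lower in Q175 at 6m and 10m.

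**Figure D3:**
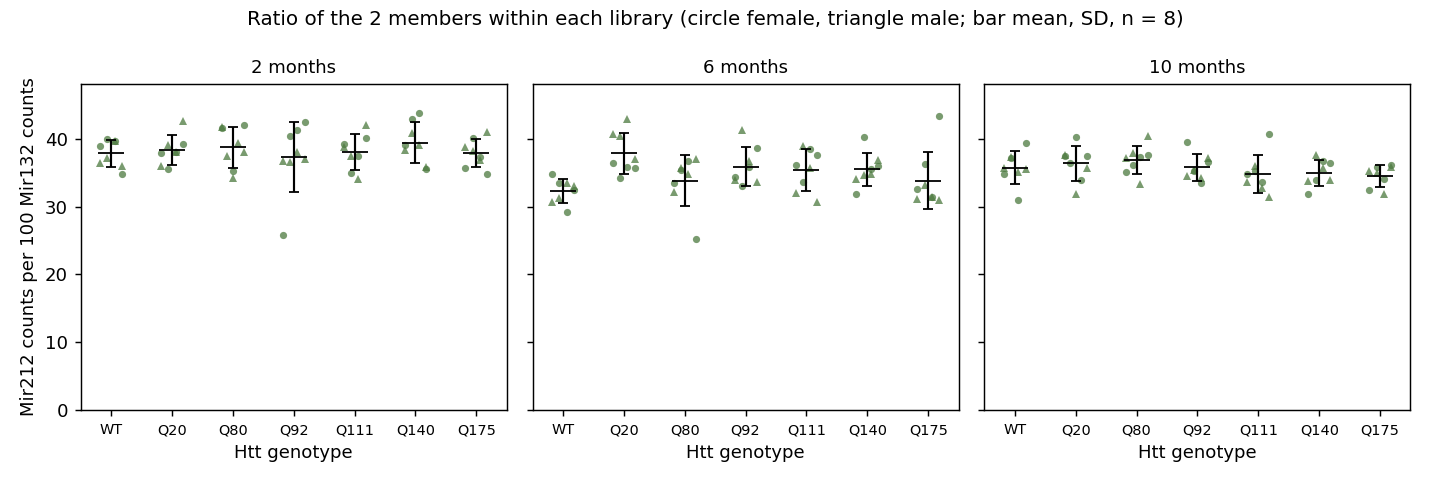
Mir212 counts per 100 Mir132 counts in each library against Htt genotype at 2, 6 and 10 months, with circles for females, triangles for males and bars for the mean and SD of 8 libraries. The group means lie between 32.3 and 39.4, and single libraries at 25.8 (Q92, 2 months), 25.3 (Q80, 6 months) and 43.3 (Q175, 6 months) stand apart from their groups.

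The 2 genes also varied together between mice of the same group. After the library code or block and the genotype mean were taken out, the deviations of log2 CPM correlated over 56 libraries with Pearson's r = 0.63 at 2m, 0.46 at 6m and 0.64 at 10m (permutation p = 1e-05, 0.00034 and 1e-05, adjusted over the 3 ages 1.5e-05, 0.00034 and 1.5e-05, where 1e-05 is the smallest these permutations can give). Spearman's rho was 0.67, 0.35 and 0.50 (permutation p = 1e-05, 0.00765 and 7e-05). Without the 2 libraries farthest from the median of Mir132, r was 0.57, 0.38 and 0.48. Within the library codes r lay between 0.37 (L7 at 10m, 30 libraries) and 0.84 (L8 at 10m, 10 libraries). At 6m it was 0.53 in block B (40 libraries) but 0.15 in block A (16 libraries), so that the pooled 6m value rested on block B. Sex was not taken out of the deviations. At 2m the means of both genes were higher in females than in males in every genotype except Q175. Both values of a library also share its total and scaling factor. The part of sex and of scaling in r was not tested.

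**Figure D4:**
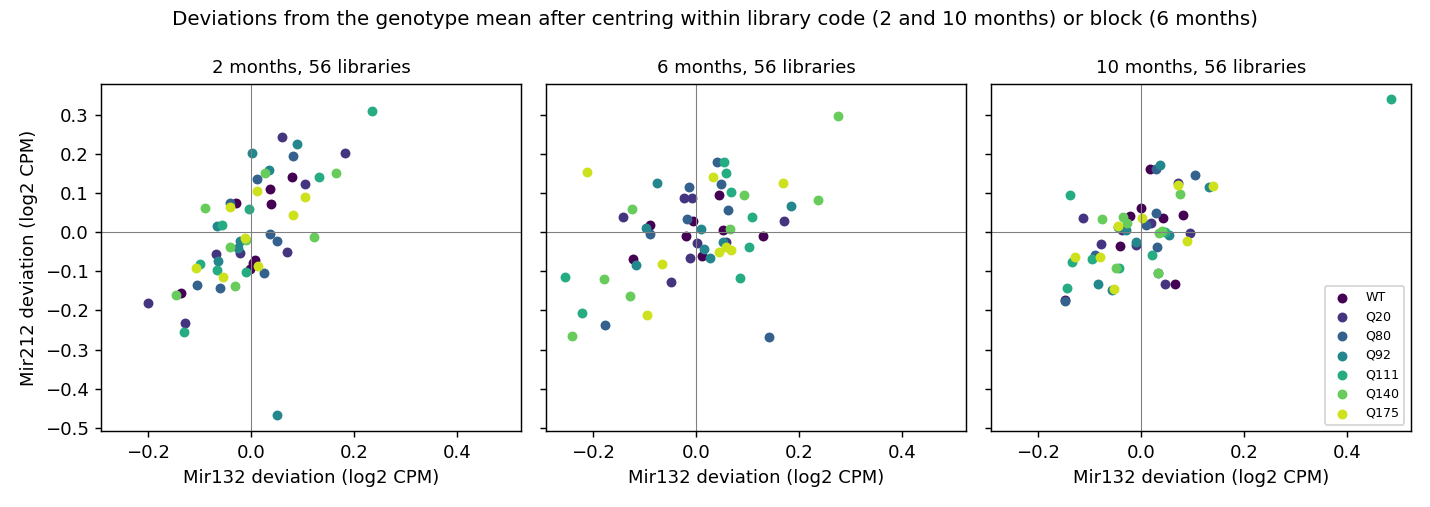
Deviation of Mir212 against that of Mir132 in log2 CPM, each from its genotype mean after centring within library code or block, for 56 libraries at each age, coloured by genotype. The points run from lower left to upper right (r = 0.63, 0.46 and 0.64), and at 10 months 1 Q111 library lies far up on both axes.

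Over all 168 libraries, with library code and block centred but genotype kept, each gene was the other's closest match among 406 annotated transcripts (Pearson's r = 0.66, a description). The next for Mir132 were Mir674 (r = 0.55), Mir150 (0.51), Mir128-2 (0.50) and Mir3102 (0.44), and for Mir212 they were Mir128-2 (0.57), Mir674 (0.52), Mir484 (0.46) and Mir3102 (0.45). Mir150 is abundant in lymphocytes and miR-128 in neurons. Mir3102 fell in Q175 at 6m and 10m (-0.34, edgeR adjusted p = 0.0224, and -0.36, adjusted p = 0.00111). Mir484 fell at 10m by a log2 difference of -0.23 (adjusted p = 0.0142) and Mir128-2 by -0.16 (adjusted p = 0.0201), whereas Mir674 (-0.11, adjusted p = 0.0926) and Mir150 (-0.05, adjusted p = 0.448) did not pass at 10m.

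Other microRNAs known to be regulated by neuronal activity were looked up by a fixed list. All 10 were tested. On CAG length none passed the edgeR test at any age (lowest adjusted p = 0.149). Before adjustment 0, 1 and 1 of the 10 had p under 0.05 at the 3 ages in turn. Over all 470 transcripts 18, 67 and 130 did. In Q175 at 2m or 6m none passed either (lowest adjusted p = 0.181). There 0 and 3 of the 10 had an unadjusted p under 0.05, beside 8 of 470 and 75 of 469 transcripts. In Q175 at 10m, where 11.9% of all transcripts were called, Mir184 rose (0.54, SE 0.15, edgeR adjusted p = 0.0201). Mir138-2, whose product is known to restrain dendritic spines in rat neurons, fell (-0.12, SE 0.04, edgeR adjusted p = 0.0368). Mir138-1, a gene of the same microRNA, was not called. The median difference of all 10 in Q175 at 10m was 0.05, beside 0.01 over all tested transcripts. Of 12 other microRNA genes linked to REST, 11 were tested. In Q175 at 10m, where 11.9% of all transcripts were called, 3 fell and none rose. Their list had a median of -0.14, beside 0.01 over all tested transcripts. The 3 were Mir124a-1, a gene of the abundant neuronal miR-124 (-0.21, SE 0.05, edgeR adjusted p = 0.00283), Mir29a (-0.18, SE 0.04, adjusted p = 0.00177) and Mir139 (-0.14, SE 0.04, adjusted p = 0.00758). On CAG length at 10m, where 11.1% of all transcripts were called, Mir124a-1 and Mir29a fell. Mir124a-2 and Mir124a-3, genes of the same microRNA as Mir124a-1, were called in neither. In Q175 at 6m, where 3.41% were called, Mir29a fell (-0.18, SE 0.03, adjusted p = 0.00336). None of the 11 was called on CAG length at 2m or 6m or in Q175 at 2m, where 0.213%, 1.28% and 0% of all transcripts were.

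The summed level of neuronal microRNAs was also lower in Q175 at 6m and 10m, with overlapping ranges. All 10 neuronal microRNA genes listed (those of miR-124, miR-128, miR-137, miR-138 and miR-218) were in the table, and none was at 0 in most libraries. Their summed level at 10m ranged from 38626 to 48069 CPM in Q175 and from 44976 to 51638 in the controls, a mean log2 difference of -0.14, and at 6m from 44354 to 50573 in Q175 and from 49204 to 56682 in WT, a difference of -0.12. At 2m the ranges were 48827 to 59082 and 48184 to 61874. This list shares genes of miR-124, miR-137 and miR-138 with the lists above. In Q175 at 10m, 5 of the 10 fell and none rose, where 11.9% of all transcripts were called. The 5 were Mir124a-1, Mir128-1, Mir128-2, Mir138-2 and Mir218-2. On CAG length at 10m all of these but Mir138-2 fell, where 11.1% of all transcripts were called. In Q175 at 10m Mir132 and Mir212 differed by -0.25 and -0.30. In tissue, fewer neurons and less RNA per neuron cannot be told apart, and the part of neuron number in the decrease was not tested. For the other cell types, 3 oligodendrocyte, 3 microglia and leukocyte, 3 vessel, 7 choroid plexus and 3 red blood cell genes were in the table, none at 0 in most libraries. Their summed levels in Q175 minus controls at 10m differed by 0.03, -0.05, -0.07, -0.19 and -0.16, and at 6m by 0.06, -0.26, -0.00030, 0.08 and 0.03, with ranges that overlapped in each case. Of the choroid plexus genes, Mir449a was called higher on CAG length at 10m (edgeR adjusted p = 0.0162), where 11.1% of all transcripts were called. At 6m the microglia and leukocyte sum ranged from 658 to 1090 CPM in Q175 and from 916 to 1239 in WT. The part of these cells in the decrease was not tested.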

How the data were processed

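Hippocampal short RNA of 168 mice was sequenced by the authors as strand-specific single-end reads. They aligned reads to mm10 with STAR and used HTSeq for gene counts, and their processing notes list CASAVA 1.8.2. The deposited values were estimated counts (not all whole) and RPKM. Counts were rounded to whole numbers. RPKM served for levels per length and as an alternative for the ratio. Of 1626 transcripts, 1228 matched GENCODE M21, and 398, with 1.38% of counts, did not. edgeR 4.0.16 (R 4.3.3) fitted quasi-likelihood models with TMM scaling to 470 transcripts kept by filterByExpr (minimum count 10; 469 in 6 fits in which 1 transcript had no counts), with sex and library code or block as covariates, and calls had a Benjamini-Hochberg adjusted p under 0.05. DESeq2 1.42.0 was an alternative. The study replaced outlying values before testing, which was not done here. CPM were log2 transformed with a pseudocount of 0.5. Fits were tested on simulated counts. No 2 of 588 pairs of libraries within groups were identical.

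Members in full, the 5 closest transcripts per gene and all called genes of the activity, REST and cell type lists were named. Members, lists and tests were chosen with earlier results of these data known.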

Additional observations from a re-analysis of the deposited data

Results flagged for a closer look

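In 63 groups of 8 values (the CPM of each gene and the counts of Mir212 per 100 of Mir132), 6 held a library whose gap to the next was large for the range of its group, where chance gives about 1 in 20. At 10m the Q111 library M4 was highest for both genes, at 4385 CPM for Mir132 (the other 7 lay between 2747 and 3232) and 1375 for Mir212 (the others 956 to 1115). It carried library code L6. The Q20 library M2 at 10m was lowest for Mir212, at 945 CPM against 1053 to 1130 in the others. In counts of Mir212 per 100 of Mir132, the Q92 library F1 at 2m stood at 25.8 (the others 36.6 to 42.4), the Q80 library F4 at 6m at 25.3 (the others 32.2 to 37.0) and the Q175 library F4 at 6m at 43.3 (the others 31.0 to 36.2). Without the Q175 library F4, the Q175 ratio at 6m averaged 32.4 ± 1.86 (SD, n = 7).

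The slope of Mir212 on CAG length differed between 10m and 2m by -0.16 (edgeR adjusted p = 0.0253), and by -0.09 (adjusted p = 0.980) without Q175.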

How the results depend on the processing

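The calls of both genes in Q175 at 6m and 10m kept their direction under all alternatives run, and both stayed called when any 1 of the 24 libraries of an age was left out. Leaving out a Q20 library could hardly move the 6m differences, because Q20 stood alone in its block. At 6m females alone gave -0.25 for Mir132 and -0.12 for Mir212 and Q20 alone as the control gave -0.15 for Mir132, and at 10m females alone gave -0.23 and -0.30, all uncalled. The 6m slope was called for Mir132 with DESeq2 (-0.10) and for Mir212 with size factors from relative log expression (-0.10), DESeq2 (-0.10) and males alone (-0.20), and for Mir212 without any 1 of 7 libraries (Q140 F4, Q20 F1 to F3, Q80 F4, Q92 F2 and WT F2, adjusted p = 0.0283 to 0.0480). Without Q175 the slopes were 0.010 for Mir132 at 6m, 0.0052 for Mir132 and -0.031 for Mir212 at 10m, and the change in slope of Mir212 was -0.091 from 2m to 10m and 0.012 from 6m to 10m. The 10m slope of Mir132 was uncalled with no filter on low counts (-0.10, adjusted p = 0.121) and in males alone (-0.072), as was that of Mir212 in males alone (-0.11).

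Signs changed only in uncalled values near 0 other than the slopes without Q175 above. At 2m in females alone the slopes were -0.018 and -3.4e-05 and the Q175 differences -0.043 and -0.053 for Mir132 and Mir212. Mir212 in Q175 at 2m against Q20 alone was -0.0081, the ratio at 2m against WT alone 0.00073, the sex difference of Mir212 at 2m without Q175 -0.0057, and Q175 minus Q140 for Mir132 at 2m -0.0039 with relative log expression and -0.0040 with DESeq2.

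Leaving out 1 library gave these ranges. For Q175 at 2m they were -0.0083 to 0.034 (Mir132) and -0.021 to 0.029 (Mir212), for the ratio at 2m -0.025 to 0.0090, for the 6m slope of Mir212 -0.11 to -0.086 and for the 10m slope of Mir132 -0.12 to -0.084. The number of transcripts called ranged from 0 to 2, 2 to 10 and 36 to 80 for the slopes at 2m, 6m and 10m and from 8 to 18 and 45 to 65 for Q175 at 6m and 10m. The highest for the 10m slope, 80, was without Q20 M2, and for Q175 at 6m the number was 9 without Q175 M2, 10 without WT M3 and 8 without WT M4.

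The number called for the slope at 2m was 0 with the replicate block, in females alone, in males alone, without Q175 and without WT. At 6m it was 11 with relative log expression, 1 with no low-count filter, 13 with DESeq2, 2 with no block term, 3 with the replicate block, 1 in females alone, 1 in males alone, 0 without Q175 and 0 without WT. At 10m it was 34 with no filter, 81 with the replicate block, 12 in females alone, 9 in males alone and 0 without Q175. For Q175 at 6m it was 7 with no filter, 139 with no block term, 0 in females alone, 6 in males alone and 223 against Q20 alone, and at 10m 37 with no filter, 6 in females alone, 19 in males alone and 36 against WT alone.

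The labels gave all genotypes the same replicate numbers, but nothing ties these to shared litters. Deviations of same-numbered libraries of different genotypes had a mean correlation of -0.0074, 0.0014 and 0.01 at 2m, 6m and 10m, and 25, 26 and 33 of 56 libraries were closer to their own number than to the others. The replicate block left both genes on the same side of the threshold in every slope and allele comparison.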
